A study of Mus musculus with 8 samples.

Results

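Of the 42006 mouse probes on the array, 15 gave almost no signal in embryonic stem cells (ESC) and a clear signal in trophectoderm cells (TE) made from the same lines. They were chosen on the Cy3 signal of the sample alone. The mean intensity of a spot was divided by the median intensity of its local background, and a probe was taken if this multiple was at least 6 on all 4 TE arrays and under 2 on all 4 ESC arrays. The step from ESC to TE is therefore the choice itself and is given as a description, with no test.

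The samples were male mouse ESC lines of a mixed C57BL/6, 129S4Sv/Jae and 129S6/SvEvTac background, either wild type or lacking the genes of the B-type lamins, Lmnb1 and Lmnb2 (lamin B null), and TE cells derived from them. Every line, controls included, carried pCAG-Cdx2ER-IP at a random place in the genome, a transgene for a form of Cdx2 that tamoxifen switches on, and the labels name 2 independent lines per genotype without saying which array holds which. TE cells had spent 2 days in 30% TS medium with 1 ug/ml 4-hydroxytamoxifen, FGF4 and heparin, then 6 days in undiluted TS medium. Each genotype was hybridised on 2 arrays per cell type, with the sample in Cy3 (green) and a common reference in Cy5 (red). The reference held 2 parts of RNA pooled from 11 cultured cell lines and 1 part of RNA from 129 ESC. The 4 ESC arrays lay on 1 slide and the 4 TE arrays on another, so cell type and slide cannot be told apart, while both genotypes of a cell type shared a slide. Title and genotype call the wild-type TE samples wild type, whereas their entry for genetic modification reads knockout, and the former was followed.

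The trophectoderm is the outer epithelium of the blastocyst, from which the trophoblast of the placenta descends. Cdx2 is a transcription factor of that lineage, and forcing it in ESC drives them out of pluripotency toward trophoblast. B-type lamins are filament proteins of the lamina that lines the inner nuclear membrane, where much inactive chromatin lies. The comparison of the genotypes in TE asks whether probes that go from silent to bright do so to the same level without these lamins.

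The files name no gene for any probe and mark all of them as unmapped. The probe sequence is therefore the only identity a probe has here, and neither the TE label nor the lamin deletion could be checked on named marker genes. The sequences of 10 of the 15 probes are shown, those whose values are discussed one by one. Each is 60 bases long, 5′ to 3′, in lower case with every CpG in capitals.

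Z00077059-1: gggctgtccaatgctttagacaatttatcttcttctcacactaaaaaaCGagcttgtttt
Z00030610-1: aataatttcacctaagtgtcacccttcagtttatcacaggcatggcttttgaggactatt
Z00016045-1: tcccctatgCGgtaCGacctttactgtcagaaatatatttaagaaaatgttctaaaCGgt
Z00016647-1: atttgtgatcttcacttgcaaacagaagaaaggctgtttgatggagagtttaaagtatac
Z00073419-1: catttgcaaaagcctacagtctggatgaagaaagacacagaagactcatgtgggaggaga
Z00048802-1: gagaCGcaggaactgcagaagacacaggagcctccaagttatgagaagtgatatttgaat
Z00054993-1: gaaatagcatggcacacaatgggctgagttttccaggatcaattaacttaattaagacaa
Z00025277-1: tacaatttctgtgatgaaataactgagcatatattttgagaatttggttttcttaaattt
Z00034466-1: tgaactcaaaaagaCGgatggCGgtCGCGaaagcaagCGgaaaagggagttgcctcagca
Z00038555-1: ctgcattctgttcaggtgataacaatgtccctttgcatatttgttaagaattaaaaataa

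The other 5 were Z00007723-1, Z00072956-1, Z00062572-1, Z00055775-1 and Z00049951-1. No probe of the 15 shared 20 or more bases, on either strand, with any other probe of the array. None had a run of 20 bases in the RefSeq promoter windows or miRNA hairpins of GRCm38.p6. The sequences were poor in G and C. The median GC content was 36.7%, with a range of 23.3% to 53.3%, against 43.3% over all probes and 40.0% over the 7133 probes that were under 2 times the background on all 4 ESC arrays. In 10 of the 15 (66.7%) there was no CpG, against 45.1% of all probes and 52.9% of those 7133. Z00034466-1, with 5 CpG and 53.3% GC, stood at the other end.

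In ESC the 15 probes lay between 1.47 and 2.00 times the local background, and none was well above background by the scanner's own call on any ESC array. The 153 negative control spots of each ESC array had a median of 1.52 to 1.66 times the background. The 15 probes were thus near the controls but mostly above their median, which 15, 14, 10 and 15 of them exceeded on lamin B null replicates 1 and 2 and wild-type replicates 1 and 2. Only on lamin B null ESC replicate 1 did any probe, 3 of the 15, exceed the level that the highest 2.5% of the controls reached (1.92). The choice kept the 15 under 2 times the background, whereas this level was 2.516 on both wild-type ESC arrays and 1.996 on lamin B null replicate 2. The 15 could therefore not exceed it on the wild-type arrays, and hardly on lamin B null replicate 2. Of all probes, which were held to no limit, 53.9% to 64.9% exceeded the level of the array on the 4 ESC arrays. In bulk RNA, a silent gene in all cells and an active one in very few cannot be told apart.

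In TE the same probes stood between 6.13 and 145 times the background, all 15 well above background on all 4 arrays, with no saturated spot and no outlier flag. A multiple of background is the signal of a spot and depends on how well its sequence hybridises, so the range across probes is not a range of transcript levels. Few probes that began silent became bright. Of the 7133 probes under 2 times the background in all ESC samples, 5651 (79.2%) stayed under it on all TE arrays too, 135 (1.89%) rose to at least 2 times on all TE arrays, 31 (0.435%) to at least 4 times and the 15 (0.210%) to at least 6 times. With the limits turned round, 32 probes were bright in ESC and silent in TE.

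Z00077059-1 had the largest rise by its bound. It stood at 74.9 and 55.9 times the background in wild-type TE and at 145 and 75.4 in lamin B null TE, against 1.60 and 1.71 in wild-type ESC and 1.83 and 1.59 in lamin B null ESC. As its ESC signal was not well above background, the rise is only bounded, at least 43.8-fold. Such bounds set the mean normalized sample signal of the 4 TE arrays against the mean ESC signal, raised on each array to the lowest signal that was well above background.

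Bounds over the 15 probes ran from 4.41 to 43.8, with a median of 8.45, and 6 probes were at 10-fold or more. Z00030610-1 rose at least 24.5-fold and Z00016045-1 at least 24.3-fold. Z00025277-1 rose at least 19.9-fold, Z00007723-1 at least 18.8-fold and Z00016647-1 at least 14.6-fold. The lowest bounds were those of Z00038555-1 (at least 4.41-fold), Z00049951-1 (at least 4.65-fold) and Z00048802-1 (at least 4.84-fold), whose TE signals were only 6.13 to 11.9 times the background. For all 15 probes a true rise of any size above the bound is possible, as no ESC signal was well above background.

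The limits fell in a smooth run of values. Nearest inside the TE limit, the lowest TE multiple was 6.13 for Z00038555-1, 6.80 for Z00054993-1 and 6.89 for Z00049951-1. Just outside it were Z00005156-1 with 5.97, Z00025898-1 with 5.89 and Z00042672-1 with 5.75. At the ESC limit, the highest ESC multiple was 2.00 for Z00007723-1, 1.99 for Z00055775-1 and 1.98 for Z00030610-1 inside, and 2.01 for both Z00001626-1 and Z00035942-1 and 2.02 for Z00043023-1 outside.

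The reference channel, which the choice did not use, held signal for most of the 15. Its RNA was the same on all arrays. In 10 of the 15 probes (66.7%) the reference was well above background on all 8 arrays, against 239 of the 7133 ESC-silent probes (3.35%), 53.4% of all probes and 99.8% of the 13503 probes that were at least 6 times the background on all TE arrays and at least 2 times on all ESC arrays. By this measure the 15 stood between the silent probes and those on in both cell types. Z00016647-1 had the strongest reference signal, 129 ± 12.4 times the background on the ESC arrays (SD, n = 4) and 131 ± 23.2 on the TE arrays (SD, n = 4), more than its sample signal of 16.4 to 40.2 in TE. For Z00007723-1 the reference stood at 31.2 ± 5.24 on the ESC arrays and 31.8 ± 4.51 on the TE arrays (SD, n = 4 each), and for Z00016045-1 at 12.9 ± 0.836 and 12.6 ± 1.44 (SD, n = 4 each).

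In another 4 probes the scanner's call on the reference signal changed between the slides. For Z00034466-1, Z00038555-1, Z00048802-1 and Z00077059-1 the scanner called the reference well above background on each of the 4 TE arrays but not on a single ESC array, a pattern found in 59 of all 42006 probes (0.140%) and in 12 of the 7133 ESC-silent probes (0.168%), these 4 included. No probe of the array had the opposite pattern. The reference of Z00034466-1 was between 1.35 and 1.48 times the background on the ESC arrays and stood at 2.27 and 5.47 on the wild-type and 2.64 and 3.80 on the lamin B null TE arrays. On these arrays its sample signal was 7.39, 18.0, 17.7 and 21.9 times the background. The lowest reference was on the array with the lowest sample signal, while the highest was on wild-type replicate 2 and the highest sample signal on lamin B null replicate 2. For Z00077059-1 the reference went from 1.36 ± 0.0694 to 2.15 ± 0.155 (SD, n = 4 each), for Z00048802-1 from 1.53 ± 0.138 to 2.52 ± 0.441 and for Z00038555-1 from 1.43 ± 0.0805 to 2.88 ± 0.351. The reference was well above background on 2 ESC arrays and all 4 TE arrays for Z00025277-1, at 2.00 ± 0.0835 and 2.75 ± 0.479 (SD, n = 4 each). For Z00062572-1 it was well above background on all 8 arrays but also higher on the TE arrays, at 5.49 ± 0.274 against 4.07 ± 0.438 (SD, n = 4 each). As the ESC and TE arrays lay on different slides, the part of the slide in this difference was not tested. The sample signal of the same spots was higher on the TE arrays too, and its part in the reading of the other dye was not tested, so these values may not be reference RNA alone. A higher reference lowers the ratio of sample to reference for these probes in TE.

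On the unnormalized multiples, the TE samples spanned a wider range for the 15 probes than for other bright probes, which were also brighter. The median multiple of the 15 was 11.6 and 17.9 in wild-type and 21.4 and 15.8 in lamin B null TE, against 39.5 and 38.1, and 52.1 and 48.7, for the 13503 probes that were bright in TE and on in ESC. The highest TE multiple was a median of 2.28 times the lowest, against 1.72 for the 13503. The 4 TE values lay within 2-fold for 6 of the 15 (40.0%) and for 71.0% of the 13503, and spanned over 3-fold for 3 of the 15 (20%) and 7.83%. On these multiples the narrowest span was that of Z00073419-1, at 11.2 and 13.2 in wild-type and 13.4 and 11.8 in lamin B null TE. Z00048802-1 had 10.4 and 8.69 in wild-type and 9.83 and 8.10 in lamin B null TE. Neither separated the genotypes on this scale, unlike on the log2 ratio, where the span of Z00073419-1 was 0.83 and the narrowest was 0.48, for Z00038555-1. Z00049951-1 had 7.14 and 6.89 in wild-type and 11.9 and 9.65 in lamin B null TE, and there the genotypes did not overlap.

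The widest spans on these multiples had different shapes. Z00030610-1 read 20.7 and 33.3 in wild-type and 101 and 76.2 in lamin B null TE, so it split by genotype. Z00025277-1 read 14.1 and 41.6 in wild-type and 40.1 and 61.3 in lamin B null TE, with wild-type replicate 1 low. Z00055775-1 read 7.12 and 11.2 in wild-type and 27.4 and 15.8 in lamin B null TE, and both null samples were above both wild-type samples. On the log2 ratio the widest spans were those of Z00054993-1 (1.94), Z00030610-1 (1.77) and Z00016647-1 (1.56). That of Z00055775-1 was 1.34, and its genotypes overlapped there.

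The remaining probes lay between these shapes. Z00016045-1 read 39.0 and 33.6 in wild-type and 74.5 and 62.2 in lamin B null TE. Z00007723-1 read 30.1 and 26.1 in wild-type and 48.4 and 36.9 in lamin B null TE. Z00062572-1 read 10.8 and 7.63 in wild-type and 17.4 and 11.9 in lamin B null TE. In all 3 both null samples were above both wild-type samples, an order that 53.2% of the 27359 tested probes had before normalization. Z00072956-1 overlapped, with 11.6 and 17.9 in wild-type and 21.4 and 15.1 in lamin B null TE. Z00038555-1 did not, with 6.71 and 6.13 in wild-type and 9.99 and 11.1 in lamin B null TE.

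Z00054993-1 split by replicate number instead. It stood at 18.7 and 6.80 times the background in wild-type TE and at 16.2 and 7.06 in lamin B null TE, so replicate 1 was over replicate 2 in both genotypes. After normalization, its log2 ratio of sample to reference was 2.29 and 0.74 in wild-type and 1.55 and 0.35 in lamin B null TE. The replicate differences of 1.55 and 1.20 exceeded its genotype difference of -0.56 (SE 0.56).

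On the log2 ratio of sample to reference, the replicates of wild-type TE differed by a median of 0.27 over the 15 probes, against 0.33 over the other bright probes that were tested, and those of lamin B null TE by 0.61 against 0.17. On this ratio the wider spread was thus seen in lamin B null TE and not in wild-type TE, but its size depended on the processing. The median replicate differences of the 15 were 0.28 in wild-type and 0.30 in lamin B null TE with the processed signals of the scanner. They were 0.27 and 0.39 with no background subtraction, 0.34 and 0.55 in the sample channel alone, and 0.36 and 1.37 with median centring.

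Within lamin B null TE all 15 probes had the higher log2 ratio on replicate 1, by 0.07 to 1.20, with a median of 0.61. Over all 27359 tested probes 50.8% were higher on replicate 1, with a median difference of 0.00. In the sample channel alone, 13 of the 15 were higher on replicate 1 (51.7% of all tested probes). With the processed signals of the scanner it was 14 of 15 (50.5%), with a median difference of 0.30, and with no background subtraction 11 of 15 (51.0%), with a median of 0.25. In the authors' deposited values it was 10 of the 11 probes they held (50.0%), but these values follow the processed signals and so repeat that setting over fewer probes. With median centring it was 15 of 15, but there 77.4% of all tested probes and 99.6% of the other bright probes were also higher on replicate 1. In wild-type TE the replicates had no common order, with replicate 1 higher for 8 of the 15 and a range from -1.48 (Z00025277-1) to 1.55 (Z00054993-1). Lamin B null TE replicate 1 was also the brighter array, with a median of 52.1 times the background over the 13503 probes against 48.7 on replicate 2, and the part of brightness in the order after normalization was not tested.

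The genotype difference within TE was then compared. The choice held both genotypes to the same limits, so it did not use this difference, although a probe that lost its signal in 1 genotype could not have been chosen. None of the 15 passed an adjusted p of 0.05 in limma, in a fit of all 8 arrays with Benjamini-Hochberg adjustment over 27359 probes. Over all of these, 6 probes (0.0219%) passed, 1 with more signal in lamin B null cells (0.00366%) and 5 with less (0.0183%), so a count of 0 among 15 is near the background. At an unadjusted p under 0.05 there were 3 of the 15, 1 higher and 2 lower in lamin B null TE, against 3.49% of the tested probes. That fit draws part of its spread from the ESC arrays, where the choice held the sample signals of the 15 near background. With the TE arrays alone 1 of the 15 was under 0.05 in limma, against 1.46% of the tested probes. It was Z00016647-1 (0.0330), while Z00030610-1 had an unadjusted p of 0.0593 and Z00048802-1 of 0.0674 in that limma fit. The differences ranged from -0.997 to 1.03 on the log2 scale, with a median of -0.04 (0.00 over all tested probes), 7 of the 15 being higher in lamin B null cells. Without lamin B null TE replicate 1 this count was 4, and without replicate 2 it was 11. Their median size of 0.25 compares with 0.13 over all tested probes, and their median SE of 0.26 with 0.17.

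Z00030610-1 had the most positive difference. Its log2 ratio was 2.28 and 3.13 in wild-type TE and 4.05 and 3.41 in lamin B null TE, with means of 2.71 ± 0.61 and 3.73 ± 0.45 (SD, n = 2 each). Both null samples lay above both wild-type samples. The difference of 1.03 (SE 0.32), or 2.04-fold with a 95% interval of 1.20 to 3.45, had an unadjusted p of 0.0159 and an adjusted p of 0.989 in limma. It had the same sign under every setting tried. Without wild-type TE replicate 2 it was 1.46 and passed (limma adjusted p = 0.0408), in a fit in which 1187 of all probes passed and the lone wild-type array was assumed to vary like the other groups.

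Z00016647-1 had the most negative difference. Its log2 ratio was -0.78 and -1.22 in wild-type TE and -1.65 and -2.34 in lamin B null TE, with means of -0.999 ± 0.30 and -1.996 ± 0.49 (SD, n = 2 each). Both null samples lay below both wild-type samples, and so did their sample signals (29.4 and 16.4 against 40.2 and 30.3 times the background). The difference of -0.997 (SE 0.28) was 0.501-fold with a 95% interval of 0.314 to 0.799, at an unadjusted p of 0.0105 and an adjusted p of 0.989 in limma. Without lamin B null TE replicate 1 it was -1.34 and without replicate 2 it was -0.65.

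Z00048802-1 had log2 ratios of 2.66 and 2.59 in wild-type and 2.26 and 1.48 in lamin B null TE. Its difference of -0.76 (SE 0.26) had an unadjusted p of 0.0257 (limma adjusted p = 0.989), and it was -0.23 with the processed signals of the scanner. It was -1.15 without lamin B null TE replicate 1 and -0.37 without replicate 2. This is 1 of the 4 probes whose reference was well above background on the TE arrays but on no ESC array. Z00073419-1 had log2 ratios of 2.06 and 1.92 in wild-type and 1.83 and 1.23 in lamin B null TE, again with no overlap, and a difference of -0.47 (SE 0.26, limma adjusted p = 0.989), which was -0.76 without lamin B null replicate 1 and -0.17 without replicate 2.

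For the other 11 probes the genotypes overlapped on the log2 ratio. Z00055775-1 had the largest of these differences upward, 0.55 (SE 0.33), with 0.51 and 1.20 in wild-type and 1.85 and 0.96 in lamin B null TE, and it was 0.10 without lamin B null replicate 1, 0.99 without replicate 2, 0.20 without wild-type replicate 1 and 0.89 without wild-type replicate 2. Z00025277-1 followed at 0.25 (SE 0.45), with 3.35 and 4.83 in wild-type and 4.37 and 4.30 in lamin B null TE. The differences of Z00016045-1 and Z00007723-1, whose null signals had all been higher before normalization, were 0.24 each (SE 0.21 each) after it.

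A genotype order without overlap was thus seen in 1 of 15 with lamin B null higher (11.8% of the tested probes) and in 3 of 15 with wild type higher (11.6%). In the sample channel alone it was 3 in each direction (14.5% and 13.8%). On the unnormalized multiples of background, 8 of 15 were higher in both null samples and 1 in both wild-type samples, but 53.2% and 2.35% of all tested probes did the same. The part of array brightness in that order was not tested.

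The interval of the genotype difference shows how much could have been missed, and it varied with the processing. For 7 of the 15 probes it stayed inside a 2-fold change in both directions: Z00016045-1, Z00007723-1, Z00072956-1, Z00034466-1, Z00062572-1, Z00049951-1 and Z00038555-1. The narrowest belonged to Z00038555-1, with a difference of -0.04 (SE 0.17, 95% interval -0.46 to 0.38). The widest belonged to Z00054993-1, at -1.91 to 0.79. Z00077059-1, with 5.84 and 5.72 in wild-type and 6.14 and 4.94 in lamin B null TE, had a difference of -0.24 (SE 0.36, 95% interval -1.10 to 0.63). In this fit a difference over 2-fold was not excluded for the other 8. The count of 7 was 3 with the processed signals of the scanner, with median centring and, of 11 probes, with the deposited values, 5 with the TE arrays alone or the sample channel alone, and 10 with no background subtraction. Z00034466-1 and Z00038555-1 are among the 4 probes whose reference was well above background on the TE arrays but on no ESC array. In the sample channel alone their intervals were -0.62 to 1.17 and -0.17 to 0.60. That of Z00034466-1 thus left the 2-fold range there, as did that of Z00062572-1 (-0.38 to 1.01).

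The choice itself required a rise from ESC in both genotypes. Its bound was at least 14.7-fold in wild type and at least 41.01-fold in lamin B null cells for Z00030610-1, at least 19.6-fold and at least 10.9-fold for Z00016647-1, and at least 34.7-fold and at least 55.3-fold for Z00077059-1. Bounds do not give the rises themselves, so they do not show that these differed. A limma contrast of the genotype difference in TE with that in ESC passed for none of the 15 (smallest adjusted p = 0.99992). The choice held all ESC sample signals near background, so this contrast cannot decide whether the rises differed.

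The authors' deposited log10 values held 11 of the 15 probes. On that scale the 11 lay between 2.47 and 3.97 in TE and between 0.807 and 1.71 in ESC, and in each of them the lowest TE value exceeded the highest ESC value, by 0.896 or more. These values come from the same arrays on which the probes were chosen, so they are no separate support for the rise. Z00030610-1 had 3.45 and 3.71 in wild-type TE and 3.97 and 3.85 in lamin B null TE. Z00016647-1 had 3.66 and 3.53 against 3.39 and 3.13. The order of the genotypes was the same as on the log2 ratio for both.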

How the data were processed

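Total RNA of 8 samples was measured on two-colour Agilent arrays. Per the file headers, the authors scanned them with Agilent Feature Extraction 9.5.1.1, and the deposited files hold mean spot intensity and median local background intensity on a linear scale, processed intensity (background-subtracted and dye-normalized) and flags of 0 or 1, averaged over spots of a probe as a fraction. Another deposited table holds log10 values for 25030 features, and the sources used here do not state how the authors made it. Differences between its columns followed the log10 ratio of sample to reference, which settles its scale and direction, while the choice of features stays unknown (column medians 2.27 to 2.33).

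Members and lists were chosen with earlier results of these data known. The labels do not say whether arrays came from separate cultures, so p-values measure the spread between these samples. Intensities were corrected by normexp (offset 50) and normalized by loess in limma 3.58.1 under R 4.3.3, with control and outlier spots left out, and turned to log2 of sample over reference. A probe was tested if 1 group or more had it well above background on each of its 2 arrays (27359 probes, all 15 included). Fits used lmFit and eBayes on 4 group means with 4 residual degrees of freedom. The number of arrays limits the precision. Between 47.0% and 68.0% of probes were well above background per array, over a median local background of 42.0 to 47.0. Sample channel levels were taken after loess and Aquantile, in 1 dye without swaps.

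Probes described singly were those with non-overlapping genotypes in TE, the 5 largest and 3 smallest rises, the 3 widest and 3 narrowest spans, the 3 brightest in the reference and those nearest the limits. Z00034466-1, the remaining signals and the comparisons of the reference between slides and of replicates were added after values were seen. Alternatives are given in the closing section.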

Additional observations from a re-analysis of the deposited data

How the results depend on the processing

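The fit with a replicate term of its own in each cell type, alone or with the sample channel, was chosen after seeing the data. Same-numbered replicates of the 2 genotypes deviated together within TE (r = 0.52 across probes) and within ESC (0.64) but not across cell types (-0.06 to 0.08), and nothing in the labels says that a number pairs samples. With the replicate block over all arrays 4 probes of all tested passed in TE, and 5 with the block within cell type. In neither did any of the 15 pass (smallest limma adjusted p of 0.379 and 0.206). The interval of the difference stayed within 2-fold for 9 and 10 of the 15 (7 without a block). With the block within cell type these included Z00054993-1 (-0.90 to -0.23), Z00073419-1 (-0.98 to 0.052) and Z00077059-1 (-0.95 to 0.48). With that block 4 of the 15 had an unadjusted p under 0.05 in limma, against 9.26% of all tested probes. The SE of Z00054993-1 was 0.13 with it and 0.56 without a block, so its precision depended on a pairing that the labels do not give. The cause of the shifts below was not tested, also where fewer arrays or probes enter.

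The number of probes chosen (15) was 31 at 4 and 9 at 8 times the background in TE, 0 under 1.5 and 182 under 3 times in ESC, and 1024 by the scanner's call of well above background. It was 15 to 42 without single arrays, 42 without wild-type ESC replicate 2 and 26 without wild-type TE replicate 1. The count of all probes called for genotype in TE (6) was 0 with median centring, the deposited values, the TE arrays alone or only probes above background on all TE arrays (283, 713, 399 and 842 at an unadjusted p under 0.05 in limma), 1 with the processed signals or the trended robust variance, 2 with array weights, 10 with the sample channel alone and 21 with no background subtraction. Without single arrays it was 0 to 1187. The count among the 15 was 0 to 1 without single arrays and 0 otherwise. The median replicate difference of the 15 in TE (0.59) was 0.93 with median centring, 0.29 with the processed signals and 0.33 with no background subtraction.

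The median genotype difference of the 15 (-0.04) ranged from -0.31 without lamin B null TE replicate 1 to 0.26 without replicate 2, and was 0.24 with no background subtraction and 0.22 with the sample channel alone, where 10 of the 15 were higher. Of 311 values of single probes under other settings, 284 kept their sign and stayed above the threshold, 1 passed it, and 26 turned sign, 14 of them with no array left out. Many of the 311 could not turn. Settings that changed only the replicate term, the variance model, the array weights, the probes tested or the ESC arrays gave the same difference as the main fit. The deposited values nearly repeated the processed signals, and the sample channel gave the same difference with or without the block. The 284 is therefore no measure of how stable the signs were. Z00038555-1 turned to 0.24 with no background subtraction, 0.13 with the processed signals and the deposited values, and 0.22 with the sample channel alone (also with the block). Z00049951-1 turned to 0.24, 0.19, 0.19 and 0.16 (also with the block). Z00077059-1 turned to 0.082 with no background subtraction and 0.15 with the sample channel alone (also with the block). Z00034466-1 turned to -0.079 with median centring. Without single arrays the difference of Z00016045-1 ran from -0.054 to 0.54, of Z00025277-1 from -0.49 to 0.99, of Z00034466-1 from -0.24 to 0.37, of Z00038555-1 from -0.28 to 0.20, of Z00049951-1 from -0.34 to 0.26, of Z00054993-1 from -1.34 to 0.21, of Z00062572-1 from -0.31 to 0.55, of Z00072956-1 from -0.56 to 0.056 and of Z00077059-1 from -0.83 to 0.36. That of Z00030610-1 ran from 0.60 to 1.46.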
